A study of Mus musculus with 2 samples.

Results

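The Slc25a genes encode the mitochondrial carrier family, and their accessible chromatin in mouse kidney was read here at each gene's transcription start sites (TSSs) and along its locus. Members were the protein-coding genes of the GENCODE M21 basic annotation whose symbols start with Slc25a; 46 of 47 were used and the other one was not analysed here, out of 21938 protein-coding genes in all. Kidney tissue came from male B6CASTF1/J mice of 25 days, a first-generation cross between the strains C57BL/6J and CAST/EiJ, and was assayed by DNase-seq, in which nuclei are treated with the nuclease DNase I and the cut ends are sequenced. Both libraries belong to 1 group with no treatment and no other genotype, so values are compared between the replicates and between genes. The labels give the libraries separate biosamples and animal numbers but the same donor code, and spread between them may be partly technical.

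A peak is a region that the authors called accessible in 1 library, and its height is their deposited signal. Replicate 1 had 125393 peaks over 22.1 Mb and replicate 2 had 177001 over 31.1 Mb; footprints, short gaps in cutting within accessible chromatin where a protein may sit on the DNA, numbered 237471 and 493495. Pairs of values below are in the order replicate 1, replicate 2. The read depth of the libraries is unknown, and with 2 libraries no test between animals was made. Of 11 marker genes of kidney cell types, 9 had a promoter peak in both libraries and the collecting duct water channel Aqp2 and the podocyte gene Nphs1 had one in replicate 2 only, while 1 of 6 markers of other tissues (Ins2, heights 0.410 and 0.298) had one. In whole tissue, fewer cells with an open site and less opening per cell cannot be told apart.

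Mitochondrial carriers sit in the inner membrane, with a few in the outer membrane or in peroxisomes, and exchange nucleotides, phosphate, acids, amino acids, vitamins and cofactors with the cytosol. Each is a small protein of repeated membrane-spanning modules, and most work as exchangers that swap a solute inside for another outside. Kidney tubules depend on mitochondrial oxidation for the ATP that drives reabsorption, and their mitochondria also take part in making glucose, ammonia and active vitamin D.

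Most carrier promoters were open, and in both animals alike. A promoter peak, here any peak that overlaps 500 bp on either side of a TSS, was present for 39 of 46 members in replicate 1, for 39 in replicate 2 and for the same 39 in both, which is 84.8% (exact 95% binomial interval 71.1 to 93.7). Over all protein-coding genes the share was 66.2% in replicate 1, 68.0% in replicate 2 and 65.3% in both. The remaining 7 members, Slc25a2, Slc25a18, Slc25a31, Slc25a37, Slc25a41, Slc25a47 and Slc25a54, had a promoter peak in neither library. Where a member was open, its highest promoter peak lay within the window at the annotated 5′ end of the gene in both libraries. The highest peaks of the libraries overlapped in 38 of 39 cases. In the remaining case, Slc25a24, 2 peaks tied at 0.914 in replicate 1 and the first by position was taken. The other of the tied peaks did overlap the highest peak of replicate 2. The highest promoter peak covered a TSS base of its gene in 31 of 39 members in replicate 1 and in 29 in replicate 2, and lay beside the TSSs, within the window, in the other 8 and 10. Coverage of a TSS base was not counted over all genes. The height of the highest promoter peak had a median of 9.09 and 7.57 over the open members and ran from 0.564 to 20.7 and from 0.571 to 24.7. Over all genes with a promoter peak in both libraries the medians were 7.49 and 7.01, which puts the median open carrier at percentiles 58.6 and 54.7.

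**Figure D1:**
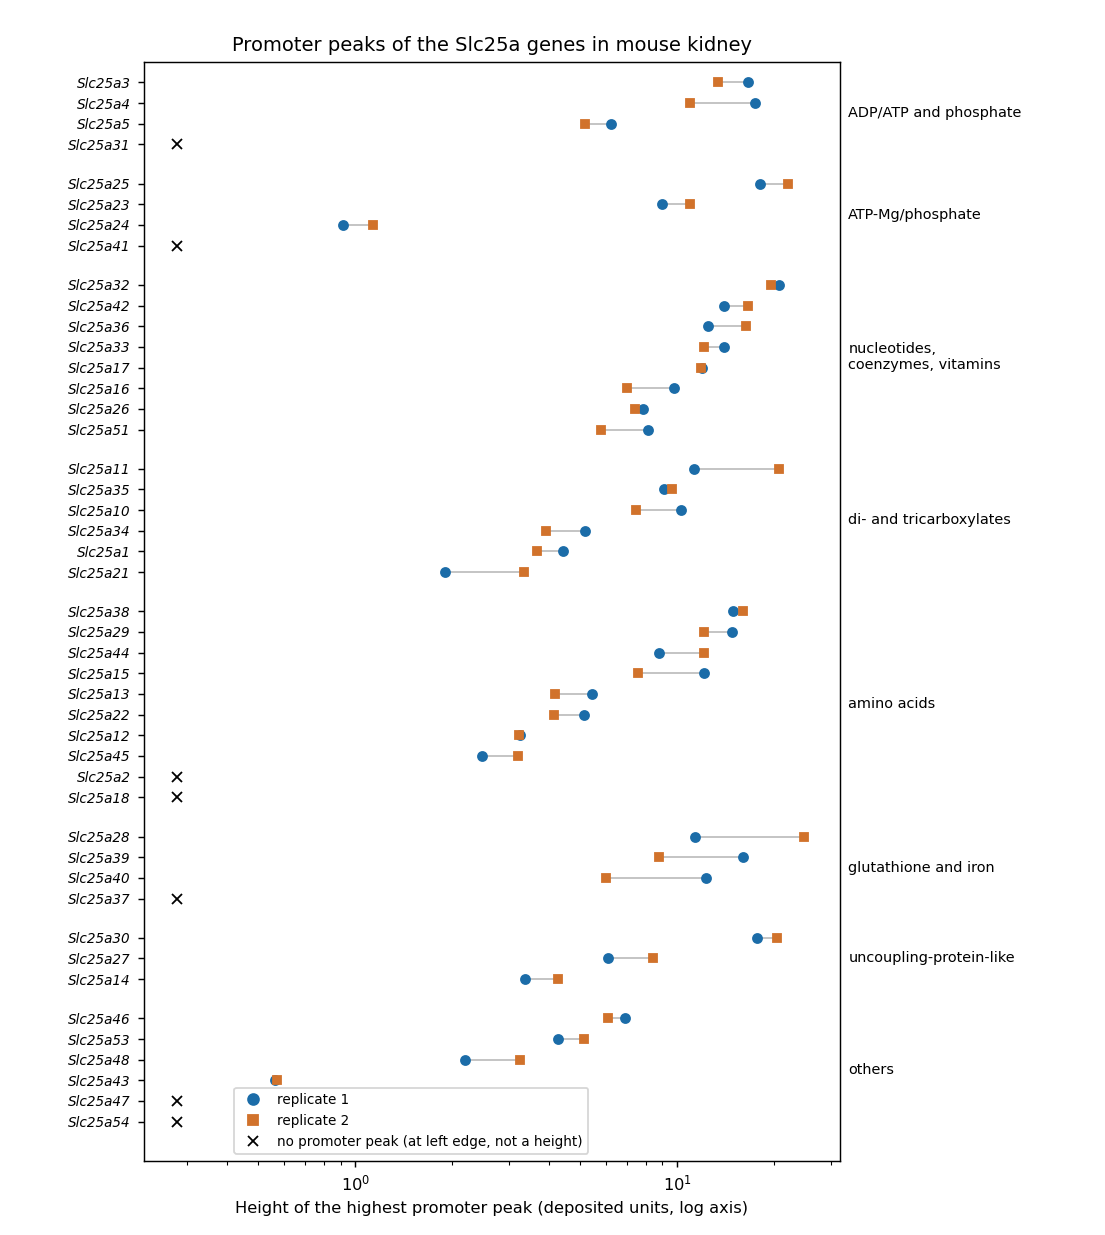
Height of the highest promoter peak of the Slc25a genes described here in replicate 1 (circles) and replicate 2 (squares) on a log axis, grouped by what the carrier is known to move; crosses at the left edge mark the 7 genes with no promoter peak and are not heights. The carriers of nucleotides, coenzymes and vitamins shown lie between 7.85 and 20.7 in replicate 1 and between 5.79 and 19.5 in replicate 2, while Slc25a43 and Slc25a24 lie lowest among the open genes.

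The carriers that feed oxidative phosphorylation divided by isoform. Slc25a3, which imports the phosphate used to make ATP (chr10:91116574-91124059, minus strand), had heights of 16.6 and 13.4. Slc25a4, the ADP/ATP carrier best known from heart and muscle (chr8:46206797-46211284, minus strand), had 17.4 and 10.9. Slc25a5, the more widely used ADP/ATP carrier, lies on chromosome X (36795651 to 36798807, plus strand) and had 6.25 and 5.16. Slc25a4 was thus above Slc25a5 in each library. The peak of Slc25a4 was centred 223 bp past its TSS in both libraries and did not cover it, while that of Slc25a5 covered its TSS. Slc25a31, an ADP/ATP carrier known from male germ cells, had no promoter peak in either library. The promoter peak of Slc25a3 and the closed promoter of Slc25a31 are shown because they are the open and the closed end of this group. In the former, capitals mark bases inside a footprint of both libraries and the strand is that of the gene. In the latter, a RefSeq promoter on GRCm38.p6, capitals mark exact matches on either strand to the Sp/Klf, Nrf1, E-box and Hnf1 motifs defined further on, and it holds 22 CpG pairs.
Slc25a3, promoter peak of replicate 1, chr10:91123941-91124200, minus strand: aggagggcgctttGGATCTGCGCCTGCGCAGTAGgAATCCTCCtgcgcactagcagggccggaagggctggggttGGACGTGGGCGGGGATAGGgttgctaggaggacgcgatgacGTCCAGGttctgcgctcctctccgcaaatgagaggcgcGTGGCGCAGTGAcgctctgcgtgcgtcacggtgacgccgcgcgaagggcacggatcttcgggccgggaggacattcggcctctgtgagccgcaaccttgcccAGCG
Slc25a31, RefSeq promoter, chr3:40708621-40708920, plus strand: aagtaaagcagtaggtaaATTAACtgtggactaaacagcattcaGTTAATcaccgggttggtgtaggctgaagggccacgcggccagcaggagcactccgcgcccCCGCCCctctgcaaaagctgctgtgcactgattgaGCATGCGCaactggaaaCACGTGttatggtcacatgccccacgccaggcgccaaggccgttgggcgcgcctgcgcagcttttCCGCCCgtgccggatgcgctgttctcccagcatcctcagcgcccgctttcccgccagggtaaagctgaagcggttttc
The peak of Slc25a3 had 7 and 7 footprints, and 71 of its 260 bases lay in footprints of both libraries. At Slc25a31 the nearest peak was 3755 bp upstream with heights of 0.684 and 0.840. CpG pairs at its 5′ end were at 0.754 of the number that base composition gives, close to the 0.717 of the open Slc25a4.

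Among the ATP-Mg/phosphate carriers, which load or unload the adenine nucleotide pool of the matrix, 3 of 4 were open. Slc25a25 (chr2:32414487-32451445, minus strand) had heights of 18.1 and 22.1 and a second peak of 15.6 and 16.6 upstream. Slc25a23 had 8.99 and 11.0 in a peak upstream of its TSS, while the peak over the TSS had 3.13 and 3.23. Slc25a24 had only 0.914 and 1.13, with 2 peaks tied for the highest in replicate 1, of which 1 overlapped the highest of replicate 2. Slc25a41, the member of this group that is known from testis, was closed in both libraries, although it lies 2056 bp from the open Slc25a23. The nearest peaks were 9627 bp away in replicate 1 and 2451 bp away in replicate 2, where the height was 0.338.

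All 9 carriers of nucleotides, coenzymes and vitamins were open, with median heights of 12.5 and 12.1. Slc25a32, which is known to bring folate or FAD into the matrix (chr15:39091231-39112716, minus strand), had 20.7 and 19.5, the highest carrier promoter in replicate 1. Slc25a42, a coenzyme A carrier, had 14.0 and 16.6. Slc25a36, a pyrimidine nucleotide carrier, had 12.5 and 16.4. Slc25a32, Slc25a42 and Slc25a36 had the highest mean heights of those described here, and 5 further members (Slc25a16, Slc25a17, Slc25a26, Slc25a33 and Slc25a51) lay between 7.85 and 14.0 in replicate 1 and between 5.79 and 12.1 in replicate 2. Slc25a51, the carrier of NAD, was the lowest of the group in replicate 2, and Slc25a26, which brings in S-adenosylmethionine, was the lowest in replicate 1. The promoter peak of Slc25a32 is shown as the highest in replicate 1, and that of Slc25a36 as one of the carrier promoters with a TGACGTCA match; capitals mark bases inside a footprint of both libraries, on the strand of the gene.
Slc25a32, promoter peak of replicate 1, chr15:39112641-39112860, minus strand: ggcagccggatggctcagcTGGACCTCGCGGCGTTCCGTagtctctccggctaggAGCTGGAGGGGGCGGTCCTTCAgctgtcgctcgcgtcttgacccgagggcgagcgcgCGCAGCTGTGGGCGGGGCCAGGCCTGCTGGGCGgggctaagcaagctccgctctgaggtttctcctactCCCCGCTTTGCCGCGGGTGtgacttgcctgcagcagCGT
Slc25a36, promoter peak of replicate 1, chr9:97111081-97111320, minus strand: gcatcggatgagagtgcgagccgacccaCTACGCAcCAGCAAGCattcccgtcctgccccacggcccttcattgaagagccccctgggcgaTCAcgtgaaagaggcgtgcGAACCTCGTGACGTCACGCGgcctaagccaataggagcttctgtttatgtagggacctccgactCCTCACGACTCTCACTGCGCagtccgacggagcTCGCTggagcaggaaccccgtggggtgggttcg
Bases in footprints of both libraries numbered 97 of 220 in Slc25a32 and 63 of 240 in Slc25a36.

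All 6 carriers of di- and tricarboxylates, which link the citric acid cycle to the cytosol, were open as well, at lower median heights of 7.14 and 5.69. Slc25a11, the oxoglutarate/malate carrier of the malate-aspartate shuttle, had 11.2 and 20.7 and so differed between the animals. Slc25a10, the dicarboxylate carrier, had 10.3 and 7.46. Slc25a35, a carrier whose substrate is less well known, had 9.09 and 9.61. Slc25a34, also of uncertain substrate, had 5.19 and 3.91 although its 5′ end is poor in CpG (0.216 of the number that base composition gives). Slc25a1, the citrate carrier that supplies acetyl units for fat synthesis, had 4.42 and 3.66, and Slc25a21, the oxodicarboxylate carrier, had 1.91 and 3.35.

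Of the 10 amino acid carriers 8 were open, with medians of 7.09 and 5.87. Slc25a38, which brings glycine into mitochondria for heme synthesis (chr9:120110374-120124504, plus strand), had 14.9 and 16.0 in an intronic peak centred 457 and 447 bp past the TSS, while the peak over the TSS had 7.16 and 8.77. Slc25a29, a carrier of basic amino acids (chr12:108825873-108835883, minus strand), had 14.8 and 12.1. Slc25a44, a carrier of branched-chain amino acids, had 8.76 and 12.2. Slc25a15, which exchanges ornithine and citrulline across the inner membrane, had 12.1 and 7.57. For the aspartate/glutamate carriers, Slc25a13 had 5.43 and 4.17 and Slc25a12 had 3.25 and 3.22. For the glutamate carriers, Slc25a22 had 5.12 and 4.14 and Slc25a18 had no promoter peak, its nearest peak being an intronic site of 0.504 and 0.656 that lies 4740 and 4736 bp from the TSS. For the ornithine carriers, Slc25a15 was open and Slc25a2 was closed; the sole peak in the locus of Slc25a2, with heights of 14.4 and 13.6 at a distance of 5416 bp, sits at the TSS of the neighbouring gene Taf7. Slc25a45 had 2.48 and 3.20 beside its TSS and 0.812 and 1.09 over it.

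The iron carriers divided by paralog. Slc25a28, mitoferrin 2, the widely used iron importer (chr19:43663801-43674881, minus strand), had heights of 11.4 and 24.7, the highest carrier promoter in replicate 2. Slc25a37, mitoferrin 1, best known from red blood cell precursors (chr14:69241848-69285112, minus strand), had no promoter peak and no peak anywhere inside its 43.3 kb body in either library. The 3 peaks of its locus all lay beyond its 3′ end, with heights of 6.60 and 12.4, 3.04 and 3.19, and 3.50 and 4.48. All 11 and 9 footprints of the locus lay in these peaks, so the body and upstream flank held no called feature. Whether reads can be placed uniquely over this gene was not tested, so a lack of placed reads cannot be told apart from closed chromatin. The 5′ end of Slc25a37 is not poor in CpG, at 0.719 of the number that base composition gives. Slc25a39 and Slc25a40 both take part in bringing glutathione into mitochondria. Slc25a39 had 16.0 and 8.76, and Slc25a40 had 12.3 and 6.03, so both were lower in replicate 2. The peak just past the 3′ end of Slc25a37 and the more distant of the upstream peaks of Slc25a39 are shown because they are among the highest peaks away from any TSS in the carrier loci; the plus strand is printed, and capitals mark bases inside a footprint of both libraries.
Slc25a37, peak past the 3′ end, chr14:69241641-69241820, plus strand: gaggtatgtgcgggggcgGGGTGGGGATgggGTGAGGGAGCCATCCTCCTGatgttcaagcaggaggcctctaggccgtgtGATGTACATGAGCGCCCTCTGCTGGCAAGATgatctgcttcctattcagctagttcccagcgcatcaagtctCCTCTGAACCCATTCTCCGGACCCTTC
Slc25a39, peak upstream of the gene, chr11:102411821-102412000, plus strand: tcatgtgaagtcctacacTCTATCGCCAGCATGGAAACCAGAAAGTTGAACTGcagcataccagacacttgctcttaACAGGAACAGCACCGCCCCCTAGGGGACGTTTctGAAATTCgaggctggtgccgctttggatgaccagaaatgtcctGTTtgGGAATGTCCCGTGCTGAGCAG

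All 3 carriers that resemble the uncoupling proteins were open, with medians of 6.08 and 8.43. Slc25a30, known as kidney mitochondrial carrier protein 1 (chr14:75760117-75787037, minus strand), had 17.7 and 20.3, at percentiles 89.4 and 93.2 of all genes with a promoter peak. Slc25a27 had 6.08 and 8.43, and Slc25a14 on chromosome X had 3.36 and 4.27. The promoter peak of Slc25a30 is shown as the highest of this group, with capitals as before and the strand of the gene.
Slc25a30, promoter peak of replicate 1, chr14:75786921-75787180, minus strand: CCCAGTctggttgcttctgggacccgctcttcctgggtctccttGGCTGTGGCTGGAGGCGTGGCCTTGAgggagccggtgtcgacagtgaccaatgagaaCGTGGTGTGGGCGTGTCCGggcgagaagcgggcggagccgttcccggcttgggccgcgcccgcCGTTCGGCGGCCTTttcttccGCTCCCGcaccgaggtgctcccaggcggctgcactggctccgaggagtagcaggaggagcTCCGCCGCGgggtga
Of its 260 bases, 81 lay in footprints of both libraries.

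Of the 6 other carriers 4 were open, with medians of 3.23 and 4.20. Slc25a46, an outer membrane protein that takes part in mitochondrial fission and fusion, had 6.87 and 6.10, and Slc25a53 on chromosome X had 4.27 and 5.14. Slc25a48 had 2.19 and 3.25. Slc25a43, also on chromosome X, had the lowest promoter peak of all open carriers, at 0.564 and 0.571. Slc25a54 was closed, with its nearest peak 17209 and 17169 bp away. The 3 and 4 peaks at the edge of its locus lie around the start and in the body of its neighbour Slc25a24, and 2 of them in each library are promoter peaks of that gene. Slc25a47, a carrier known from hepatocytes, was closed at both of its basic TSSs (108851129 and 108851139 on chromosome 12), where the nearest peak was 656 and 629 bp away with heights of 0.889 and 0.874. The gene model starts further upstream, at 108836046, on the opposite strand to Slc25a29 with 162 bp between the gene bodies. With the comprehensive annotation Slc25a47 therefore shares the peak of Slc25a29, of 14.8 and 12.1, and counts as open.

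The closed promoters had no entry in a second list made from the same reads. In the deposited list of cut-rate false discovery rates, which holds bases below 0.05 only, none of the 7 closed promoters had a single listed base within 500 bp of a basic TSS in either library. Among all protein-coding genes without a promoter peak, 2.19% and 2.30% had at least 1, so an absence here follows nearly always from the lack of a peak and does not bear on weaker signal. The weakest open member, Slc25a43, had 165 and 474 listed bases, with lowest rates of 0.00731 and 8.91e-08.

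The closed members were spread over promoters of different CpG content, the property that goes with open promoters in general. CpG content was taken as the observed number of CpG pairs over the number that base composition gives, in 1 kb at the 5′ end, in bands chosen after the values were seen. Below 0.4, 2 of 5 members were open (Slc25a34 and Slc25a45) and 3 were closed (Slc25a18, Slc25a41 and Slc25a54), against 27.0% open among all genes of that band. Between 0.4 and 0.6, 7 of 8 were open against 77.9%, with Slc25a2 closed. Between 0.6 and 0.8, 17 of 19 were open against 93.2%, with Slc25a31 and Slc25a37 closed. From 0.8 upward, 13 of 14 were open against 96.9%, with Slc25a47 counted as closed. Its CpG value was taken at the upstream 5′ end, inside the open peak of Slc25a29 and 15083 bp from the nearer basic TSS. A RefSeq promoter at the basic TSSs held 7 CpG pairs in 300 bp, so this band shows no closed promoter rich in CpG. Between 0.6 and 0.8 open promoters were thus no more frequent in members than in genes of like CpG content. In the 2 lower bands open promoters were slightly more frequent in members, on 5 and 8 members. Median heights of the open members rose along the bands from 3.83 and 3.56 to 14.0 and 13.4, and those of all genes from 2.15 and 2.42 to 11.2 and 9.88.

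The 4 carriers on chromosome X, which all had promoter peaks, had a median height of 3.82 and 4.70, while the 35 open autosomal carriers had 10.3 and 8.76. The highest of the 4, Slc25a5, reached 6.25 and 5.16. Over all protein-coding genes the medians were 3.45 and 3.62 on chromosome X and 7.67 and 7.19 on the autosomes. The mice were male, and the part that chromosome copy number has in these heights was not tested.

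Other genes of mitochondrial transport, a list of channels, pyruvate carriers, sideroflexins, uncoupling proteins and import subunits, were open in 23 of 24 cases, with medians of 11.4 and 10.8. The exception was Ucp3, an uncoupling protein gene best known from muscle, which had 10 and 13 peaks in its locus but none at a TSS. Ucp1 counted as open at only 0.632 and 0.427, the lowest heights of the list in both libraries. Mpc2, a subunit of the pyruvate carrier, had 34.8 and 20.8, Mtch1, an outer membrane relative of the carriers, had 26.2 and 19.9, and the import channel gene Tomm40 had 15.6 and 24.0. Mpc2, Mtch1 and Mtch2 (22.4 in replicate 1) were above every carrier promoter in replicate 1.

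Carrier promoters ranked much alike in the animals. Across the 39 open members, log2 heights of the replicates had a Pearson correlation of 0.920 and heights a Spearman correlation of 0.875, as a description across genes of the same 2 libraries; across all 14329 genes open in both, these were 0.960 and 0.946. On the log2 scale, replicate 2 minus replicate 1 had a median of -0.01 and an SD of 0.48 over the members, with 20 of 39 higher in replicate 1, and 37 of 39 members lay within 2-fold of that median. The members furthest apart were Slc25a28 with a log2 difference of 1.12, Slc25a40 with -1.03, Slc25a11 with 0.88, Slc25a39 with -0.87 and Slc25a21 with 0.82. At Slc25a28 the called peak was 60 bp wide in replicate 1 and 260 bp in replicate 2, both with the same midpoint.

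Some carriers shared their open promoter with a gene on the other strand. In 5 members the promoter peak also lay within 500 bp of the TSS of another protein-coding gene in both libraries, always in the opposite direction. No share over all protein-coding genes stands beside this count, so it does not show whether such sharing is frequent in carriers. Slc25a40 starts 134 bp from Dbf4, a regulator of DNA replication, Slc25a32 starts 149 bp from Dcaf13, Slc25a27 starts 211 bp from the oxysterol hydroxylase gene Cyp39a1, Slc25a11 starts 229 bp from the ubiquitin ligase gene Rnf167, and Slc25a46 starts 390 bp from B930094E09Rik. Noncoding transcripts start in the same way at the peaks of Slc25a10, Slc25a15, Slc25a24 and Slc25a28. The accessibility of a shared peak cannot be divided between its genes, which holds for the high values of Slc25a32 and for the library difference of Slc25a11 and Slc25a40.

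Each open promoter peak held at least 1 footprint in both libraries, in 39 of 39 members, while this held for 13798 and 14166 of the 14329 open promoters of all genes in replicate 1 and replicate 2. The median number per peak was 4 and 5 in the members and 4 and 4 in all genes. Slc25a42 had the most, 9 and 12, in the widest promoter peak of the family at 620 and 560 bp. Slc25a51 had 8 and 8, Slc25a11 had 8 and 6, Slc25a23 had 8 and 5, Slc25a16 had 7 and 8, and Slc25a3 had 7 and 7. Slc25a43 and Slc25a24 had 1 each in replicate 1. Of 176 footprints in member promoter peaks of replicate 1, 150 overlapped a footprint of replicate 2, which is 85.2% (exact 95% interval 79.1 to 90.1) against 87.1% for all genes.

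GC boxes and CCAAT boxes were the most frequent of the elements searched in carrier promoters, as they were over all genes. The motifs differ in length and base composition, which alone can make some match more often, so their order is not a result about carriers. Exact matches on both strands to 10 short motifs were counted in the promoter peaks of both libraries, over a median of 240 bp per member and 220 bp per gene for 15124 genes with a peak. GGGCGG, the core of Sp and Klf sites, was present in 32 of 39 members, which is 82.1% (exact 95% interval 66.5 to 92.5), against 65.5% of all. CCAAT, the NF-Y site, was present in 21, which is 53.8% (37.2 to 69.9), against 33.3%. CACGTG, the E-box, was present in 7, which is 17.9% (7.54 to 33.5), against 9.26%. CCGGAAG, an Ets site, was present in 7, or 17.9%, against 16.3%. ATGGCGG, the YY1 core, which shares letters with GGGCGG, was present in 3, or 7.69%, against 7.59%. These are counts beside counts, with windows that are slightly longer in the members and no test.

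Rarer motifs were found in few carriers. TGACGTCA, the cyclic AMP response element, was present in 2 promoters (5.13%), those of Slc25a26 and Slc25a36, against 3.56% over all genes. Both matches touched a footprint, as did 95.8% of the TGACGTCA matches over all genes. AAGGTCA, a site of estrogen-related and other nuclear receptors, was present in Slc25a23, Slc25a34 and Slc25a42, or 7.69% (exact 95% interval 1.62 to 20.9). Its share over all genes was 1.93%, which that interval includes. Of the 3 matches only 1, that of Slc25a23, overlapped a footprint, against 51.5% of the AAGGTCA matches over all genes. GCATGCGC, the Nrf1 site, GTTAAT, one arm of the Hnf1 site, and CAAAGTCC, a Hnf4 site, were present in 0 of 39 members, for which an exact 95% interval reaches 9.03%, against 5.47%, 2.12% and 1.25% over all genes. No match says only that these letters are not in these windows. Matches often coincided with footprints: 55 of 65 GGGCGG matches in members (84.6%, against 79.3% over all genes) and 25 of 39 CCAAT matches (64.1%, against 53.0%) overlapped a footprint. Slc25a26 and Slc25a44 are shown for the TGACGTCA and the CCAAT matches, on the strand of the gene, with capitals for bases inside a footprint of both libraries.
Slc25a26, promoter peak of replicate 1, chr6:94500221-94500400, plus strand: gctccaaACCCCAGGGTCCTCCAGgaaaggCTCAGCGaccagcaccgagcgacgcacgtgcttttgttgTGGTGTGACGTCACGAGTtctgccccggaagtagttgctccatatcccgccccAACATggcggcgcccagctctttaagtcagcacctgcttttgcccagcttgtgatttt
Slc25a44, promoter peak of replicate 1, chr3:88425141-88425340, minus strand: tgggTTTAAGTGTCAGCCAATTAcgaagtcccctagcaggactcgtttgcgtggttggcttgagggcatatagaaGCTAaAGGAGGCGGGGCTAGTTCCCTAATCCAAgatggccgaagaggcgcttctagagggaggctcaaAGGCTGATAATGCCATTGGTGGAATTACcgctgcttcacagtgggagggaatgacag
The TGACGTCA of Slc25a26 lies wholly within capitals, as does that of Slc25a36 printed earlier.

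**Figure D2:**
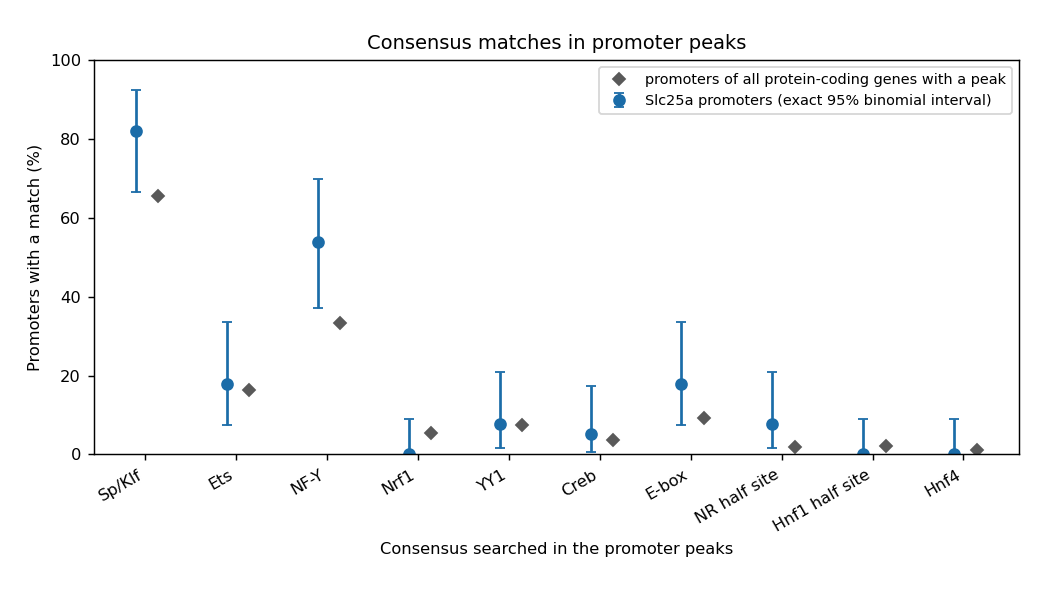
Share of promoters with an exact match to each of 10 consensus motifs, for the 39 open Slc25a promoters (circles with exact 95% binomial intervals) and for promoters of all protein-coding genes with a peak (diamonds), in percent. GGGCGG (Sp/Klf) stood at 82.1% against 65.5% and CCAAT (NF-Y) at 53.8% against 33.3%, and the other 8 intervals include the value over all genes.

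The median carrier locus held more accessible sites per kb than the median gene, as did that of other mitochondrial transport genes. A locus was the gene body with 10 kb on each side. The loci held 291 and 399 distinct peaks, of which 7 and 13 fell in more than 1 member locus. Per kb of locus the median was 0.139 and 0.218 peaks in members and 0.0849 and 0.117 over all protein-coding genes, and for footprints 0.323 and 0.786 against 0.181 and 0.355. The 24 other genes of mitochondrial transport had similar medians, 0.129 and 0.205 peaks and 0.379 and 0.682 footprints per kb. The spread was wide, with 30 of 46 member loci above the all-gene median of peaks and 16 below it in each library. Without features within 1 kb of a TSS the medians fell to 0.0613 and 0.116 peaks per kb in members against 0.0403 and 0.0624 over all genes, and to 0.0964 and 0.287 footprints per kb against 0.0564 and 0.148. Member genes had a median length of 21.1 kb, against 17.4 kb. Of the 291 peaks of replicate 1, 268 overlapped a peak of replicate 2, which is 92.1% (exact 95% interval 88.4 to 94.9) against 87.6% of all peaks, and 67.2% (62.3 to 71.8) of the 399 peaks of replicate 2 overlapped one of replicate 1, against 62.2%. By the position of the midpoint, 29 and 39 lay in exons, 119 and 180 in introns, 92 and 107 in the upstream flank and 51 and 73 in the downstream flank.

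The carrier loci with a high mean density of peaks held from 6 to 25 peaks. The locus of Slc25a11 held 10 and 11 peaks (0.429 and 0.472 per kb), that of Slc25a10 held 9 and 13, and that of Slc25a22 held 10 and 12. Slc25a4 had 6 and 11, Slc25a23 had 9 and 16, Slc25a45 had 10 and 9, and Slc25a25 had 13 and 25. Some of these peaks sit at the TSSs of neighbours; in the locus of Slc25a45 a peak of 11.0 and 15.3 lies at the TSS of another gene. A high promoter did not go with a dense locus in every member. The locus of Slc25a32 held 1 peak in each library, its promoter peak, at 0.0241 per kb, the lowest density of the family in replicate 1. Slc25a21, whose body spans 484.8 kb, had 18 and 17 peaks.

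**Figure D3:**
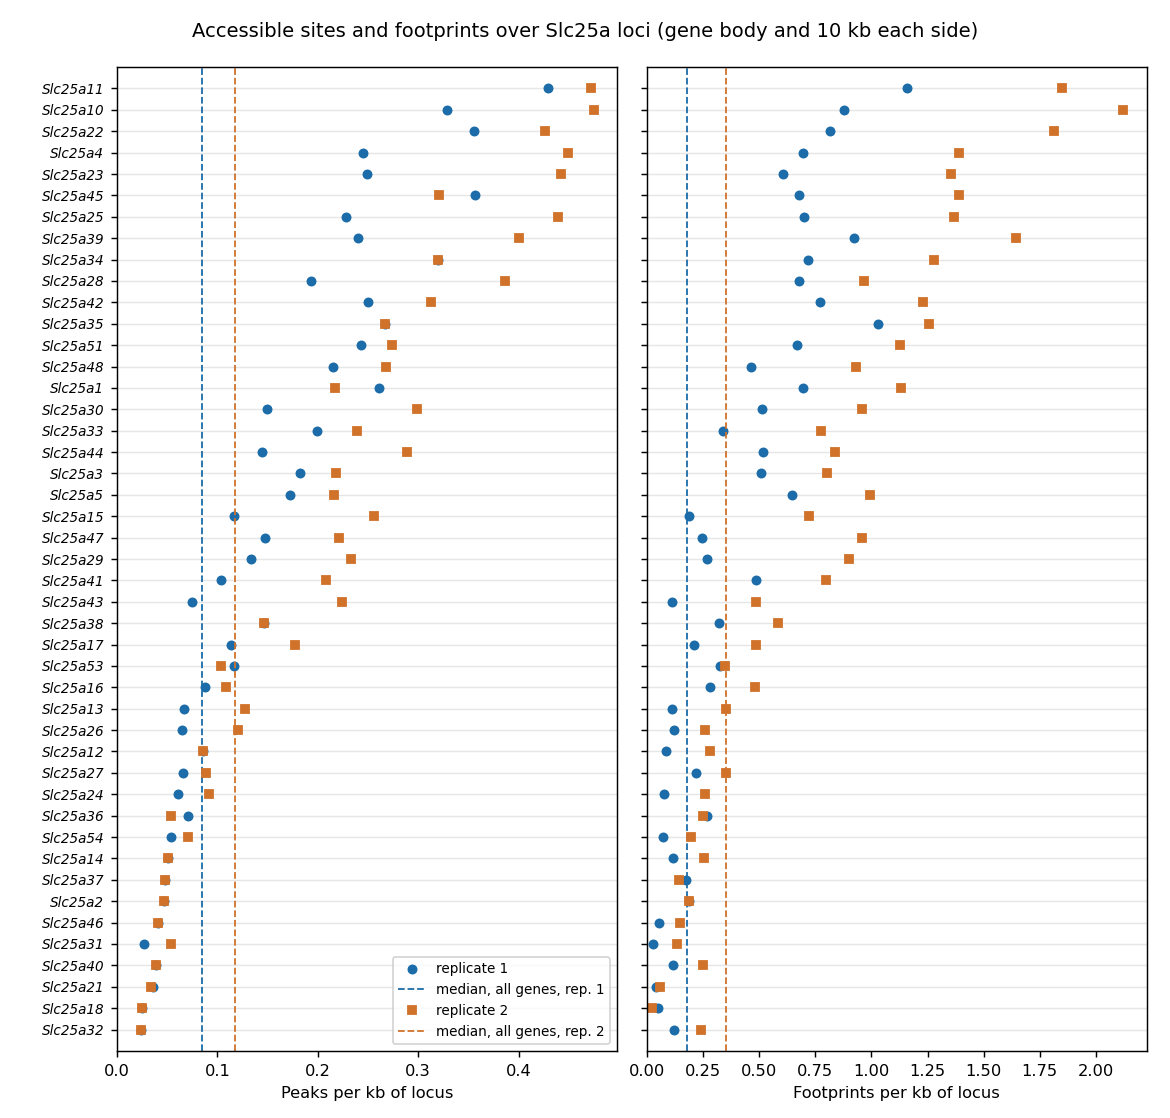
Peaks per kb (left) and footprints per kb (right) over the Slc25a loci described here, the gene body with 10 kb on each side, in replicate 1 (circles) and replicate 2 (squares), ordered by mean peak density; dashed lines are the medians over all protein-coding genes. Slc25a11 stands at the top with 0.429 and 0.472 peaks per kb and Slc25a32 at the bottom with 0.0241 in both.

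Away from TSSs the sites were lower, with a few exceptions. Peaks whose midpoints lay more than 1 kb from every TSS numbered 154 and 244, with median heights of 0.897 and 0.780, while the others had 3.38 and 2.92. The highest lay in the downstream flank of Slc25a25, 46.6 kb from its 5′ end and inside the neighbouring gene Ptges2 (chr2:32404821-32404960), with heights of 13.3 and 24.5. Slc25a39 had a pair of high upstream sites: 13.4 and 16.8 at 0.655 kb from the 5′ end of its gene model, which is not among its basic TSSs, and 1057 bp from the nearest of those in replicate 1 (chr11:102408461-102408740), and 12.3 and 17.5 at 3.97 kb (the site printed earlier). In replicate 2 each was above the promoter peak of Slc25a39 itself, 8.76, while in replicate 1 the promoter peak was higher, 16.0. The peak past the 3′ end of Slc25a37 followed, with 6.60 and 12.4.

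Lower distal sites completed the 8 highest. They had 6.84 and 7.41 downstream of Slc25a10 (chr11:120500481-120500740), 5.57 and 7.24 downstream of Slc25a35 (chr11:68982761-68982940), 6.54 and 4.81 downstream of Slc25a5 on chromosome X (36807861 to 36808100), and 4.93 and 6.09 in an exon of Slc25a42 (chr8:70188841-70189000). The 12-letter core of the site of CTCF, an insulator and loop anchor protein, was searched in windows of 150 bp around the midpoints, in either direction, after the distal sequences had been seen. It was present in 3 of these 8 peaks, those of Slc25a25, Slc25a37 and the more distant site of Slc25a39, and all 3 matches overlapped footprints of both libraries. Over all 135 shared distal peaks of the carrier loci it was present in 19, or 14.1% (exact 95% interval 8.69 to 21.1), against 14.7% of 79968 such peaks in the genome. Of the 3974 distal peaks in the genome at least as high on average as the 8th, 37.0% held it. The share of peaks with a match in the carrier loci thus lay close to that of distal peaks in general. Of the 19 matches in the carrier loci, 14 (73.7%) overlapped footprints of both libraries, against 83.3% over all shared distal peaks. Among the genome's distal peaks at least as high as the 8th, 98.5% of the matches did so. The highest of the 8 peaks is shown on the plus strand, with capitals for bases inside a footprint of both libraries.
Slc25a25, peak in the downstream flank, chr2:32404821-32404960, plus strand: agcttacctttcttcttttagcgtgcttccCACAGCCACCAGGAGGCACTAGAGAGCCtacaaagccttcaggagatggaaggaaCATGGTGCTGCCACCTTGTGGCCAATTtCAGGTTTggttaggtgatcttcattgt

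**Figure D4:**
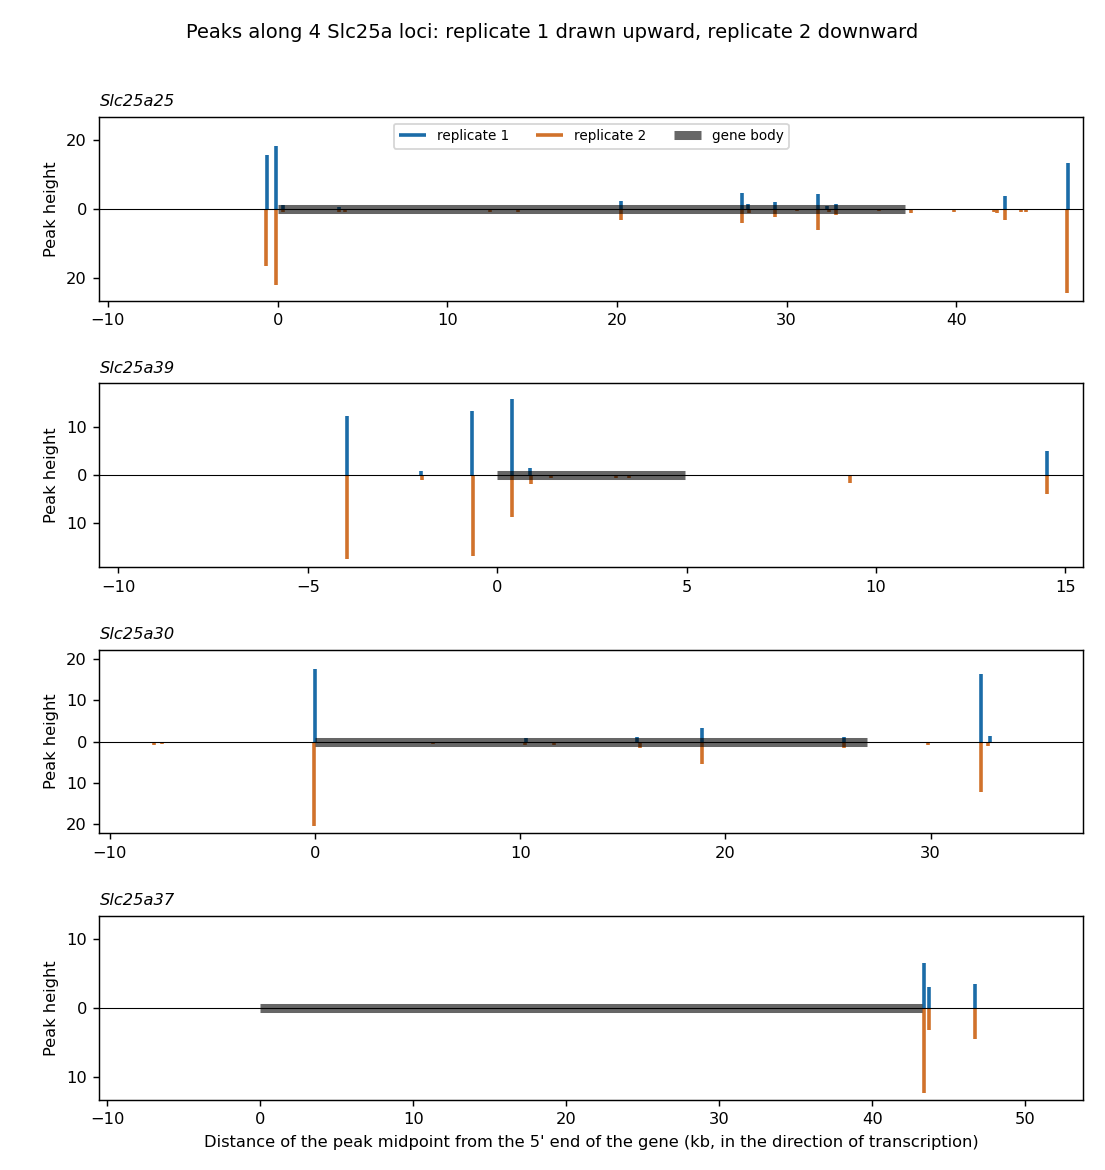
Peaks along the loci of Slc25a25, Slc25a39, Slc25a30 and Slc25a37, with distance of the peak midpoint from the 5′ end of the gene in kb, in the direction of transcription, on the horizontal axis and peak height on the vertical axis, replicate 1 drawn upward, replicate 2 downward, and the gene body as a grey bar. Slc25a37 shows no peak at its 5′ end or inside its body and 3 peaks beyond its 3′ end, while Slc25a25 has its highest distal peak (13.3 and 24.5) at 46.6 kb; the downstream peak of 16.3 and 12.2 in the panel of Slc25a30 lies at the TSS of its neighbour Cog3.

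Some carriers are neighbours of one another, and their promoter heights were unlike. Slc25a5 and Slc25a43 lie 18448 bp apart on chromosome X in the same direction, with promoter heights of 6.25 and 5.16 for the former and 0.564 and 0.571 for the latter. Slc25a23 was open at 8.99 and 11.0 and Slc25a41, 2056 bp away in the same direction, was closed. Slc25a24 was open at 0.914 and 1.13 and Slc25a54, 6461 bp away in the same direction, was closed. Slc25a29 was open at 14.8 and 12.1, and Slc25a47, 162 bp away in the opposite direction, was closed at its basic TSSs. Slc25a5 and Slc25a43 had separate highest promoter peaks, as their distance entails. In every other pair 1 gene had no promoter peak under the basic annotation, so a shared one could not arise.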

How the data were processed

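DNase-seq of kidney was deposited for 2 male mice (1 group); the members, role lists, motifs and the rule for named genes were chosen with earlier results of these data known. Per the files' descriptions, peaks and footprints were derived by the authors from each library's own filtered reads on mm10, not from pooled samples, with aligner, callers and versions not given in the sources used here. Peak heights are the signal column that the authors deposited, apparently divided by depth by the authors, since low heights rise in even steps. The deposited false discovery rate (q-value) is 0.01 in every footprint row, a threshold, and the deposited rates (q-values) per base of the cut rate are listed only below 0.05. Per the labels the mice are hybrids, and how reads with CAST/EiJ variants were aligned is not stated.

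The longer of the deposited peak lists was used (125393 and 177001 peaks) and the stricter one (80441 and 119139) as an alternative. Genes followed GENCODE M21 basic and sequences came from GRCm38.p6, with 0 features beyond a chromosome end. Promoter peaks were those overlapping the 500 bp around any TSS in either direction, loci extended 10 kb beyond both ends of a gene, and a peak midpoint over 1 kb from every TSS was distal. Overlap meant at least 1 bp. RefSeq promoters (GRCm38.p6) matched 35 of 46 members. Named in the text are all members without a promoter peak, up to 4 with the highest mean height in each role group, the 8 densest loci, the 8 highest distal peaks, the members with most footprints and those with the largest library difference; the values of 1 member, which is in the counts and medians, are not reported here; other members are named with their values to complete a group, and the sequences printed and the CpG bands were chosen after their values were seen. Other mitochondrial transport, kidney marker and other-tissue marker genes were listed for comparison. With 1 group no test was run; intervals are exact binomial, over genes, peaks or footprints, and cover counting error only. Interval counting was tested on simulated data. Python 3.11.15, numpy 2.4.6, scipy 1.17.1 and pysam 0.24.0 were used. Alternatives were the stricter list, other promoter windows, the 5′ end alone, the comprehensive annotation, the upper 50% of peaks, stricter overlap, loci without sites near TSSs and each library alone.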

Additional observations from a re-analysis of the deposited data

How the results depend on the processing

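The count of 39 open members was 38 with the stricter peak list or with only the higher 50% of peaks (Slc25a43 lost), 40 with a 2 kb window, with the 5′ end alone or with the comprehensive annotation (Slc25a47 gained), and 39 with a 250 bp window. The median of the members' mean promoter height, 9.15 (SD 1.08 between libraries), ranged from 7.57 to 9.09 when replicate 1 or replicate 2 was left out; these settings left the count at 39. The median peak density of member loci, 0.184 per kb over both libraries, was 0.0867 without sites within 1 kb of a TSS and 0.117 with the stricter list, and the footprint density, 0.570 per kb, was 0.190 without sites near a TSS; over all genes the peak density went from 0.102 to 0.0510 and the footprint density from 0.270 to 0.107. The recurrence of locus peaks of replicate 1, 92.1%, was 83.8% with 50% reciprocal overlap and 97.2% with the stricter list, and it was 67.2% for the peaks of replicate 2. The motifs gave 75 pairs of member and motif in promoter peaks and 132 in the longer window of 500 bp on each side of the 5′ end. No paired analysis was possible because both libraries belong to 1 group. Unknown depth limits the reading of low peaks, and Slc25a43 and Slc25a24 in particular stand near the lower end of the heights.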
